A study of Homo sapiens with 12 samples.

Results

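RNA recovered with YTHDF2 from untreated U251-MG cells was compared with the RNA of the cleared lysates it was taken from. U251-MG is a human astrocytoma line, labelled as astrocyte. The 6 libraries used were the 3 immunoprecipitates (IP) and the 3 inputs titled as controls, of 12 in the series; the other 6 were the IP and input libraries of cells given 100 µM manganese chloride, which share the fit and are compared only where stated. Control and manganese cells were both kept in medium with 2% serum, and no genetic change is named for either. For the IP, lysate made with a mild detergent was incubated with 10 µg of a YTHDF2 antibody and complexes were taken up on magnetic beads. For the input, 2.5% of the lysate was set aside and its RNA was purified for poly(A) before library preparation, a step the protocol gives for the input alone, although the labels call the RNA of all libraries poly(A) RNA. Libraries of both kinds were made with a stranded mRNA kit from 100 ng of RNA, and no IP with another antibody is named, so recovery by the antibody, recovery by the beads and the difference in RNA handling cannot be told apart. Nothing says that libraries 1 to 3 came from separate cultures, so the p-values rest on library-to-library spread, which may be technical.

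YTHDF2 is a cytoplasmic protein that binds N6-methyladenosine (m6A), a modification of adenosines in mRNA that lies mainly near stop codons, in long internal exons and in 3′ untranslated regions. It recruits the CCR4-NOT deadenylase, and its target mRNAs are typically short-lived messages of transcription factors and other regulators. mRNAs of stable housekeeping proteins, among them those of the ribosome, are mostly short and carry little of the modification. These statements are background and were not measured here.

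Estimated gene counts ranged between 16683984 and 25872265 in the control IPs and between 19585869 and 25239710 in the control inputs. Control IP 3 had the lowest count and the lowest share of aligned fragments, 56.88%; the other control IPs had 84.17% and 83.99%, and the inputs had 85.4% to 85.84%. One gene entry, named PCGF6, took 35.1% to 39.3% of the counts in the control IPs and 34.3% to 34.6% in the control inputs. It is part of the total behind every CPM (count scaled to library size with TMM factors). Whether the reads assigned to this entry come from PCGF6 mRNA was not tested. Across genes, libraries correlated with r of 0.88 to 0.947 within the control IPs and 0.922 to 0.967 within the control inputs (log2 values, genes not being independent replicates). The astrocytic markers GFAP, S100B, VIM, NES, SOX2 and SOX9 were present in all 6 libraries, with GFAP at 287 to 412 TPM in the IPs and 362 to 476 TPM in the inputs, whereas AQP4 was at 0 in all 6 and SLC1A2, ALDH1L1 and ALDOC were under 1 TPM. Neuronal markers summed to 18.4 to 23.3 TPM in the IPs and 21.1 to 36.9 TPM in the inputs, with RBFOX3, STMN2 and GRIN1 at 0. Microglial markers summed to 1.80 to 2.12 TPM in the IPs and 2.50 to 4.03 TPM in the inputs, with 7 of 13 at 0. Markers of epithelium and endothelium summed to 14.3 to 15.7 TPM in the IPs and 26.8 to 33.4 TPM in the inputs, most of it in the inputs from KRT8 and KRT18.

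The comparison asks which mRNA classes were recovered with YTHDF2 and which were left behind in unexposed cells. Of the classes followed, those with the largest shares of members higher in the IP were immediate-early and zinc finger transcription factors, chromatin regulators and mRNA decay factors, although of these only the immediate-early class had most of its members higher. Those with the largest shares lower were ribosomal proteins, mitochondrially encoded mRNAs, respiratory chain subunits, elongation factors, and actin and tubulin. Of 14804 genes tested, 2543 were higher in the IP, which is 17.2%, and 2096 were lower, which is 14.2% (edgeR quasi-likelihood test on counts scaled by TMM, Benjamini-Hochberg adjusted p below 0.05). These shares are the background for every count below, and the median log2 difference of all tested genes, IP over input, was 0.04. Every IP library was above every input library for 22.6% of genes and below every one for 21.2%. At least 2-fold differences that passed numbered 1678 higher and 1693 lower, at least 4-fold differences 310 and 644, and at least 8-fold differences 81 and 246, so the largest differences were more often toward the input.

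The direction depends on the scaling and on which libraries enter the fit. With total counts in place of TMM factors, 1679 genes were higher and 3036 lower and the median of all genes moved to -0.26. On log2(TPM + 1), tested with limma, 1560 were higher and 3419 lower. A fit of only the 6 control libraries, also with TMM factors, gave 1636 higher and 1834 lower. With replicate number as a term there, 1366 were higher and 1691 lower. The share of called genes that were higher was 54.8% as reported, 35.6% with total counts and 31.3% on TPM. It was 47.1% in the fit of the 6 control libraries and 44.7% there with the replicate term. Classes below are best read against the all-gene median. Where a class median changes sign under these settings it is said beside it.

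**Figure D1:**
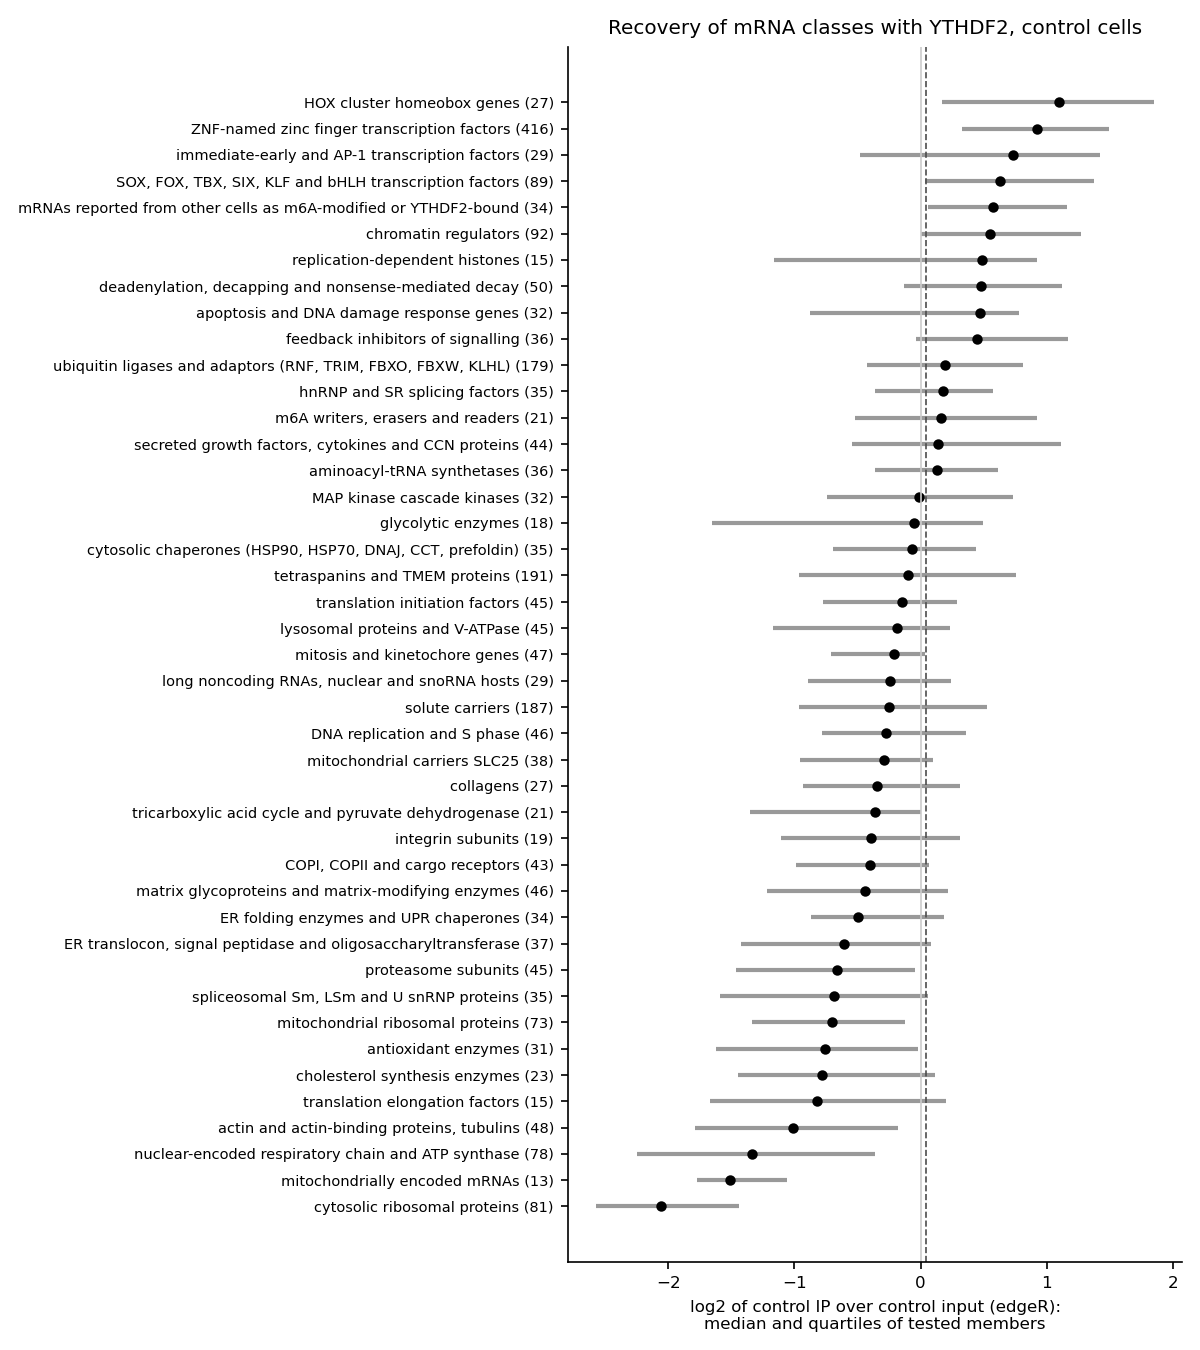
Median (point) and quartiles (bar) of the log2 difference, control IP over control input, for 43 mRNA classes, with the number of tested members in brackets; the dashed line is the median of all 14804 tested genes. HOX, zinc finger and immediate-early transcription factors lie highest, and cytosolic ribosomal proteins, with a median of -2.06, lie lowest.

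Among transcription factors, mRNAs named ZNF, most of which encode C2H2 zinc finger repressors and other DNA-binding proteins, were the largest recovered class. Of 416 tested, 186 (44.7%) were higher in the IP and 6 were lower, with a median log2 difference of 0.92; the other 224 did not pass. The summed level of all 489 listed members, tested or not, was 14110, 12970 and 14180 CPM in control IP 1 to 3. In the inputs it was 6503, 6184 and 6269 CPM. The sums do not overlap and the 3 IPs lie close together. ZNF462 had 342, 232 and 199.9 CPM in the IPs and 42.6, 40.6 and 42.3 CPM in the inputs, a log2 difference of 2.62 ± 0.20 (IP over input, ± SE of the fit here and below; edgeR, adjusted p = 3.75e-06). ZNF134 had 139, 128 and 130.3 CPM in the IPs and 33.9, 33.8 and 38.4 CPM in the inputs. ZNF799, at 22.1, 19.4 and 23.6 CPM in the IPs and 1.80, 2.92 and 2.94 CPM in the inputs, was low in the input and clear in each IP. The differences were 1.91 ± 0.16 for ZNF134, 3.08 ± 0.36 for ZNF799 and 2.35 ± 0.21 for ZNF700. The 6 that were lower were ZNF480, ZNF280C, ZNF511, ZNF653, ZNF76 and ZNF205. Members of this family share sequence, and the assignment of reads among close copies was not tested. With a correction for transcript length 138 members were higher and the median was 0.63. On log2(TPM + 1) the difference of ZNF462 was 1.69 and that of ZNF799 was 1.85. The 1 added to TPM makes differences smaller for genes at low TPM. ZNF799 had 4.88, 4.68 and 6.58 TPM in the IPs and 0.53, 0.87 and 0.89 TPM in the inputs.

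HOX mRNAs, which encode the homeodomain proteins of body patterning and are often re-expressed in glioma lines, had the highest median of the 43 classes plotted, 1.10. Of 27 tested, 8 were higher and none lower, and 19 did not pass (11 higher and 1 lower at an unadjusted p below 0.05; DESeq2 called 9 higher and 0 lower). HOXA5 had 44.8, 32.8 and 12.3 CPM in the IPs and 2.85, 3.58 and 2.03 CPM in the inputs. HOXC10 had 39.6, 28.6 and 16.3 CPM in the IPs and 5.06, 7.66 and 7.0 CPM in the inputs. HOXD10 had 45.1, 40.1 and 34.9 CPM in the IPs and 9.71, 11.9 and 12.3 CPM in the inputs. All 3 were higher in every IP than in any input, with HOXA5 and HOXC10 lowest in control IP 3, and the log2 differences were 3.41 ± 0.40, 2.10 ± 0.35 and 1.82 ± 0.20. On log2(TPM + 1) the class median was 0.27 and HOXD10 stood at 1.19. Other developmental factors (SOX, FOX, TBX, KLF, bHLH and related families) had 26 of 89 higher and 4 lower, with a median of 0.63. BHLHE40, a repressor tied to the circadian clock and hypoxia, had 641, 599 and 622 CPM in the IPs and 128, 153 and 160.3 CPM in the inputs, a difference of 2.08 ± 0.14. FOXO1, a forkhead factor restrained by insulin signalling, differed by 2.00 ± 0.15, and FOXK2, another forkhead factor, by 2.65 ± 0.21 (1.70 on log2(TPM + 1)). The 4 that were lower were ID3, ID2, FOXP4 and SIX5; ID2 and ID3 encode helix-loop-helix proteins without a DNA-binding domain.

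Immediate-early and AP-1 mRNAs, transcribed within minutes of a stimulus and rapidly degraded, had the largest share of members higher in the IP of the classes plotted. Of 29 tested, 15 (51.7%) were higher, 2 were lower and 12 did not pass, with a median of 0.73. With the length correction 9 were higher and the median was 0.37, and 10 of 27 HOX mRNAs and 138 of 416 zinc finger factors, both larger shares, were higher. JUN, an AP-1 subunit, had 393, 353 and 235 CPM in the IPs and 123, 121 and 124 CPM in the inputs, a difference of 1.41 ± 0.18. IER5, an immediate-early gene, had 119, 92.6 and 52.9 CPM in the IPs and 16.7, 19.8 and 18.4 CPM in the inputs. CEBPB, a transcription factor of inflammatory responses, had 63.5, 64.8 and 38.3 CPM in the IPs and 11.1, 14.2 and 18.9 CPM in the inputs. The differences of IER5, CEBPB and SRF, which drives serum-induced transcription, were 2.27 ± 0.24, 1.91 ± 0.24 and 1.73 ± 0.28. FOSL1 and MAFK went the other way. Summed over all 30 listed members, levels were 2207, 1984 and 1859 CPM in the IPs and 959.4, 1017 and 1068 CPM in the inputs.

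**Figure D2:**
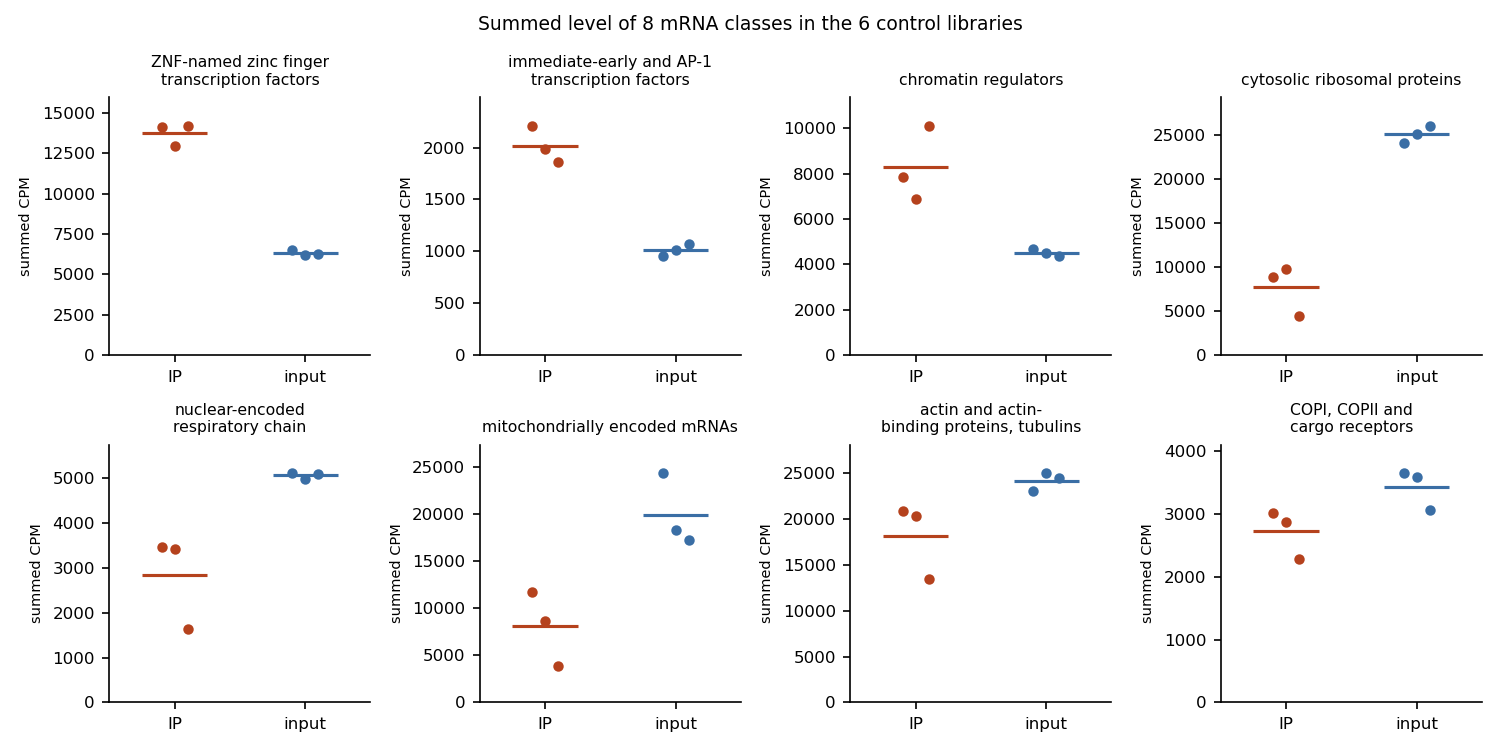
Summed level (CPM with TMM factors) of all listed members, tested or not, of 8 classes in each control library, IP left and input right. Points are libraries in the order 1 to 3 and horizontal lines are means. Zinc finger, immediate-early and chromatin classes are higher in all 3 IPs than in any input, and the 5 other classes are lower, with control IP 3 the lowest point of each.

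Feedback inhibitors of signalling, whose mRNAs are induced by the pathways they limit, had 11 of 36 higher, 1 lower (RGS4) and a median of 0.45, which was 0.22 without control IP 3, 0.72 without control input 3 and 0.08 with total counts. RGS2, which speeds inactivation of G proteins, had 63.4, 54.0 and 28.6 CPM in the IPs and 2.76, 4.24 and 3.97 CPM in the inputs. SPRY4, an inhibitor of the Ras-ERK pathway, had 157, 177 and 167 CPM in the IPs and 23.9, 39.5 and 44.0 CPM in the inputs. TRIB1, a pseudokinase adaptor, had 138, 115 and 93.4 CPM in the IPs and 27.6, 26.6 and 24.1 CPM in the inputs. SPRY4 lay close together in its IPs, and RGS2 and TRIB1 were lowest in control IP 3. ERRFI1, which restrains EGF receptors, had 412, 445 and 388 CPM in the IPs and 144, 139 and 152 CPM in the inputs. The log2 differences were 3.73 ± 0.32, 2.22 ± 0.21, 2.14 ± 0.17 and 1.52 ± 0.14, and no IP overlapped an input for any of the 4.

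Secreted growth factors, cytokines and CCN proteins moved in both directions, with 12 of 44 higher, 5 lower and a median of 0.14, which turned to -0.24 with total counts and -0.03 on TPM. CTGF, the matricellular protein now named CCN2, had 687, 464 and 146 CPM in the IPs and 47.8, 42.9 and 31.8 CPM in the inputs, so control IP 3 was the lowest IP and still above all inputs. Its difference was 3.41 ± 0.43. The growth factors BMP2, TGFA and GDF11 differed by 2.11 ± 0.25, 1.35 ± 0.17 and 1.08 ± 0.15. CYR61 (CCN1), TGFB1, MDK, PDGFB and PDGFD were lower in the IP, so the related CCN proteins CTGF and CYR61 lay on opposite sides.

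Chromatin regulators, whose mRNAs are often long, had 38 of 92 (41.3%) higher and 9 lower, with a median of 0.55. KMT2A, a histone H3K4 methyltransferase, had 173, 123 and 214 CPM in the IPs and 52.7, 40.6 and 38.1 CPM in the inputs. BAZ2A, a subunit of the nucleolar remodelling complex, had 168, 153 and 162 CPM in the IPs and 55.9, 51.3 and 51.6 CPM in the inputs. ARID1A, a subunit of the SWI/SNF remodelling complexes, had 223, 168 and 197 CPM in the IPs and 41.9, 54.1 and 45.7 CPM in the inputs. Their differences were 1.96 ± 0.21, 1.60 ± 0.13 and 2.05 ± 0.16, but on log2(TPM + 1) that of BAZ2A was 0.92 and that of ARID1A was 0.82, which did not pass (limma, adjusted p = 0.06). The 9 lower members were KAT2B, KAT5, KAT7, HDAC1, HDAC2, HDAC3, DNMT1, SMARCB1 and SMARCC2, which are catalytic or core subunits of acetyltransferase, deacetylase, methyltransferase and remodelling complexes. Without control IP 3, 37 were higher and 18 lower and the median was 0.27.

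Ubiquitin ligases and adaptors had 41 of 179 higher and 13 lower and a median of 0.19, which turned to -0.14 with total counts and -0.11 on TPM; without control IP 3, 29 were lower. TRIM45 and TRIM32, which are RING-type ubiquitin ligases, differed by 2.75 ± 0.24 and 1.68 ± 0.14. Kinases of the MAP kinase cascades had 9 of 32 higher and 4 lower with a median of -0.01, close to that of all genes, which turned to between 0.01 and 0.03 without control IP 1, control input 2 or control input 3. Within it MAP2K4, which activates JNK and p38, had 271, 269 and 254 CPM in the IPs and 75.2, 77.4 and 80.2 CPM in the inputs, while MAP2K2, MAPK3, MAP2K7 and MAP4K5 were lower.

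**Figure D3:**
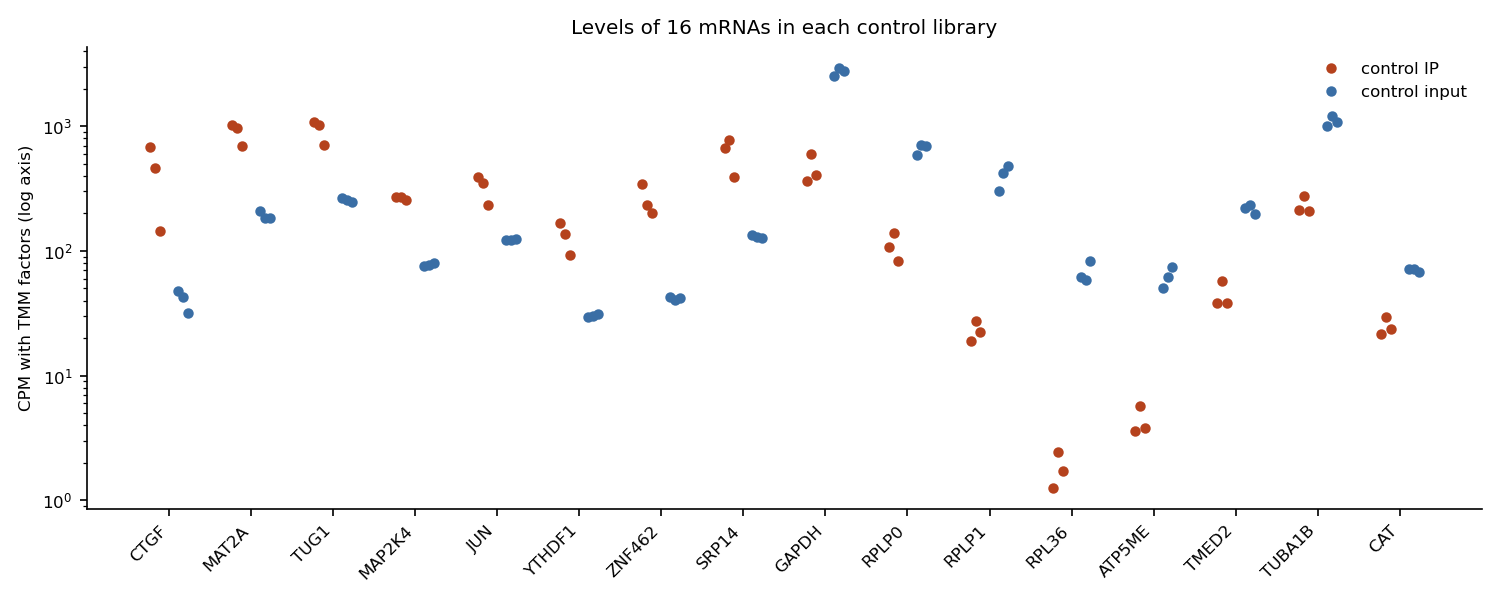
Level (CPM with TMM factors, logarithmic axis) of 16 mRNAs in each control library, IP left and input right of each pair; points are libraries 1 to 3 in order. For the 8 mRNAs on the left all 3 IPs are above every input, and for the 8 on the right all 3 IPs are below every input.

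The machinery that writes, erases and reads m6A had 7 of 21 members higher and 2 lower, with a median of 0.16 that turned to -0.17 with total counts, -0.23 on TPM and -0.03 in a fit of the 6 control libraries with replicate number as a term; it was 0.06 without control IP 2 and 0.29 without control IP 3. YTHDF1, the paralogue of YTHDF2, had 166, 138 and 92.9 CPM in the IPs and 29.8, 30.2 and 31.2 CPM in the inputs, a difference of 2.12 ± 0.19. YTHDF2 had 149, 131 and 116 CPM in the IPs and 80.3, 66.7 and 62.7 CPM in the inputs, a difference of 0.92 ± 0.16 (0.60 with total counts). YTHDF3, the other paralogue, had 0.169, 0.605 and 5.48 CPM in the IPs and 8.41, 2.01 and 2.50 CPM in the inputs, and its difference of -1.05 ± 0.98 did not pass (adjusted p = 0.473). Its 3 IPs do not lie together: without control IP 3 the difference was -3.46 and passed (adjusted p = 0.0102). WTAP and RBM15, subunits of the methyltransferase complex, differed by 1.72 ± 0.21 and 2.11 ± 0.25. FMR1, an RNA-binding protein that also binds modified mRNA, had 12.6, 15.6 and 25.3 CPM in the IPs and 59.9, 51.2 and 50.8 CPM in the inputs, a difference of -1.60 ± 0.23 that was -0.90 with the length correction, and IGF2BP2 was the other reader mRNA that was lower.

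Factors of deadenylation, decapping and nonsense-mediated decay, the machinery that YTHDF2 engages, had 20 of 50 higher and 5 lower, with a median of 0.48 that turned to -0.01 on TPM. ZFP36L2, which targets AU-rich mRNAs for decay, had 237, 180.4 and 115 CPM in the IPs and 45.9, 53.1 and 49.5 CPM in the inputs. ZFP36, its relative, had 18.7, 11.4 and 8.98 CPM in the IPs and 1.97, 0 and 0.688 CPM in the inputs. PARN, a poly(A)-specific ribonuclease, had 88.1, 84.0 and 36.7 CPM in the IPs and 16.4, 15.4 and 12.7 CPM in the inputs. Their differences were 1.84 ± 0.24, 3.92 ± 0.79 and 2.23 ± 0.31, and on log2(TPM + 1) those of ZFP36 and PARN were 2.08 and 1.15. PATL1, a decapping activator, had 35.1, 35.2 and 36.1 CPM in the IPs and 65.5, 70.4 and 72.8 CPM in the inputs, a difference of -0.97 ± 0.13, and CNOT3, DCPS, PAIP1 and XRN2 were also lower.

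Of 34 mRNAs reported from other cells as m6A-modified or bound by YTHDF2, 13 were higher, none was lower and 21 did not pass, with a median of 0.58 that was 0.10 on TPM (16 higher and 1 lower at an unadjusted p below 0.05; DESeq2 called 15 and 1). Without control IP 3, 16 were higher and 5 lower. MAT2A, which makes the methyl donor S-adenosylmethionine and has known m6A sites in its 3′ end, had 1013, 971 and 693 CPM in the IPs and 209, 184 and 183 CPM in the inputs. TUG1, a long noncoding RNA, had 1083, 1015 and 710.4 CPM in the IPs and 265, 255 and 246 CPM in the inputs. CCND1, cyclin D1, had 103, 107 and 99.6 CPM in the IPs and 33.3, 31.9 and 38.6 CPM in the inputs. Their differences were 2.21 ± 0.16, 1.88 ± 0.18 and 1.57 ± 0.16, and that of CCND1 was 0.39 on log2(TPM + 1), which did not pass (limma, adjusted p = 0.375). TUG1 was an exception among long noncoding RNAs and snoRNA host genes, of which 3 of 29 were higher and 5 lower, with a median of -0.24 that turned to 0.05 with the length correction and was -0.66 without control IP 2 and -0.02 without control input 3. The snoRNA hosts ZFAS1 and SNHG3 differed by -1.58 ± 0.29 and -0.98 ± 0.24; the first was -0.79 with the length correction, and the other was -0.59 without control IP 3 and control input 1.

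Messages of hnRNP and SR proteins had 8 of 35 higher and 3 lower with a median of 0.18, which turned to -0.17 with total counts, -0.34 on TPM, -0.03 in the fit of the 6 control libraries with replicate number as a term and -0.05 without control IP 1. Without control IP 3, 16 of them were higher, and without any 1 of the other 5 control libraries 4 or 5 were. Messages of Sm, LSm and U snRNP proteins had 5 higher and 13 lower of 35, with a median of -0.68. With total counts 4 hnRNP and SR mRNAs were higher and 10 lower, and of the Sm, LSm and U snRNP mRNAs 4 were higher and 23 lower. SF3B5, a small subunit of SF3b, had 7.05, 6.66 and 8.82 CPM in the IPs and 40.8, 47.5 and 49.7 CPM in the inputs, and SF3B3, a large one, had 322, 309 and 317 CPM in the IPs and 122, 102 and 90.0 CPM in the inputs. The differences were -2.62 ± 0.22 and 1.59 ± 0.16, the second of which was 0.93 with the length correction. SF3B1 and SF3B2, also large subunits, were higher too. The remaining higher members were LSM10 and LSM8, which are LSm proteins and not SF3b subunits. Replication-dependent histone mRNAs, which end in a stem-loop and not in poly(A), had 0 of 15 higher and 1 lower (2 higher and 4 lower at an unadjusted p below 0.05; DESeq2 called 1 higher and 2 lower). Their median of 0.49 turned to -1.39 without control IP 3, so no direction is given for them.

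Cytosolic ribosomal proteins were the most depleted class. Of 81 tested, 71 (87.7%) were lower in the IP and 1 was higher, RPL7L1, a biogenesis factor related to RPL7. The other 9 did not pass, and the median was -2.06. Summed levels of all 84 listed members were 8926, 9755 and 4494 CPM in control IP 1 to 3 and 24100, 25060 and 26010 CPM in the inputs. RPL36 had 1.27, 2.42 and 1.72 CPM in the IPs and 62.1, 59.0 and 83.4 CPM in the inputs. RPLP1, of the ribosomal stalk, had 19.1, 27.5 and 22.3 CPM in the IPs and 301, 419.9 and 477 CPM in the inputs. RPS16 had 3.38, 4.11 and 3.03 CPM in the IPs and 38.6, 54.4 and 68.1 CPM in the inputs. All 3 were far below the inputs in every IP. RPLP0, also of the stalk, had 108, 139 and 82.6 CPM in the IPs and 582, 706 and 699 CPM in the inputs. RPL19 had 94.2, 95.5 and 67.5 CPM in the IPs and 389.6, 518 and 533 CPM in the inputs. Every IP was below every input for each of them. The differences ran from -5.24 ± 0.36 for RPL36, through -4.12 ± 0.24 for RPLP1 and -3.93 ± 0.32 for RPS16, to -2.59 ± 0.20 for RPLP0 and -2.49 ± 0.20 for RPL19. With the length correction 62 were lower and the median was -1.34. These genes have many processed pseudogenes, and how reads were shared with them was not tested; of 73 ribosomal protein pseudogenes tested, 8 were lower and 1 higher.

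Vertebrate ribosomal protein mRNAs typically start with a C followed by a run of pyrimidines, the TOP element that ties their translation to mTOR. The annotated starts of the named members are shown because most of the class carries such a run, with JUN and MAT2A beside them as mRNAs that were higher in the IP. Each line gives 5 bases before and 20 from the annotated RefSeq start of GRCh38.p14, 5′ to 3′ on the gene's strand, with capitals for a C within 2 bases of that start and the run of at least 5 C or T after it.
RPLP1, chr15:69452813-69452837, plus strand: gagagCCCCTTTCCTCagctgccgc
RPL36, chr19:5690290-5690314, plus strand: ccagCCCTTCCgccacggccgtctc
RPS16, chr19:39435930-39435954, minus strand: gctttCCTTTTCCggttgcggcgcc
RPLP0, chr12:120201092-120201116, minus strand: gaggCCCTTCTCTCgccaggcgtcc
RPL19, chr17:39200278-39200302, plus strand: ccttcgcagataatgggaggagccg
JUN, chr1:58784028-58784052, minus strand: taagggctcagagttgcactgagtg
MAT2A, chr2:85539163-85539187, plus strand: gcttcgttcgctccgcgccgcccgc
RPL19, JUN and MAT2A show no such run at the annotated start. A single annotated start per gene was searched, so a run at another start of the same gene would be missed.

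Such a start was found in 876 of the 10895 tested genes with a RefSeq promoter sequence, which is 8.04%, and in 42 of the 64 ribosomal protein genes among them. All 42 were lower in the IP, with a median of -2.12. Of the 22 ribosomal protein genes in which it was not found at the annotated start, 17 were lower and 1 higher, with a median of -1.76. Of the 834 genes that have such a start and are not ribosomal protein genes, 165 (19.8%) were higher and 143 (17.1%) lower, with a median of 0.04. Where no such start was found, 18.5% of genes were higher, 15.3% were lower and the median was 0.02.

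Other parts of the translation machinery were lower to a smaller degree or were mixed. Elongation factors had 9 of 15 lower and 1 higher (GFM2, which is mitochondrial), with a median of -0.82. EIF5A, which relieves ribosome stalling, had 16.5, 36.4 and 36.1 CPM in the IPs and 165, 213 and 229 CPM in the inputs. EEF1D, a nucleotide exchange factor, had 9.21, 15.8 and 14.8 CPM in the IPs and 50.0, 63.4 and 66.4 CPM in the inputs. TPT1, an abundant mRNA with a TOP start, had 382, 377 and 169 CPM in the IPs and 1108, 1103 and 1162 CPM in the inputs. The differences were -2.77 ± 0.28, -2.18 ± 0.22 and -1.86 ± 0.25, and with the length correction those of EEF1D and TPT1 were -1.33 and -1.13. Initiation factors had 11 of 45 lower and 5 higher, with a median of -0.15 that turned to 0.02 with the length correction. EIF4G1, the long scaffold of the cap-binding complex, had 481, 646 and 812 CPM in the IPs and 296, 300.3 and 284 CPM in the inputs, a difference of 1.14 ± 0.17. Aminoacyl-tRNA synthetases had 9 of 36 higher and 3 lower (WARS, TARS and YARS), and their median of 0.13 turned to -0.22 with total counts and to between -0.08 and -0.03 on TPM and in fits of the 6 control libraries alone. AARS and EPRS differed by 1.30 ± 0.13 and 1.76 ± 0.24.

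Mitochondrial ribosomal proteins, encoded in the nucleus, had 31 of 73 lower and 6 higher, with a median of -0.70 that was -0.47 without control IP 3; with the length correction 13 were lower and 11 higher and the median was -0.19. MRPL54 had 1.44, 2.68 and 2.56 CPM in the IPs and 9.12, 18.2 and 18.4 CPM in the inputs, whereas MRPL48 had 85.4, 75.7 and 40.3 CPM in the IPs and 9.25, 14.6 and 11.8 CPM in the inputs and MRPL50 had 116, 116 and 49.4 CPM in the IPs and 27.6, 27.7 and 23.7 CPM in the inputs. The differences were -2.78 ± 0.35, 2.50 ± 0.28 and 1.84 ± 0.27, the last of which was 1.13 on log2(TPM + 1), so subunits of one particle lay on both sides.

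Nuclear-encoded subunits of the respiratory chain and ATP synthase had 49 of 78 (62.8%) lower and 5 higher, with a median of -1.34 (31 lower and -0.70 with the length correction). ATP5ME, a small subunit of ATP synthase, had 3.63, 5.75 and 3.81 CPM in the IPs and 50.3, 61.2 and 74.8 CPM in the inputs. NDUFA13, of complex I, had 3.93, 12.6 and 10.5 CPM in the IPs and 78.0, 95.2 and 94.6 CPM in the inputs. COX8A, of cytochrome c oxidase, had 12.1, 22.9 and 14.4 CPM in the IPs and 84.1, 107 and 112 CPM in the inputs. The differences were -3.82 ± 0.25, -3.31 ± 0.35 and -2.61 ± 0.24, with control IP 1 the lowest library for each. The higher members included NDUFC1, NDUFC2, SDHC and COX4I1. COX4I1, a subunit that nearly all cells make, was listed at 0 in all 3 inputs and in control IP 1, at 19.7 CPM in control IP 2 and at 9.86 CPM in control IP 3, and whether its reads were assigned elsewhere was not tested.

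The 13 mRNAs encoded in mitochondrial DNA, which are translated inside the organelle, had 10 lower, none higher and 3 that did not pass (12 lower and 0 higher at an unadjusted p below 0.05; DESeq2 called 12 and 0), with a median of -1.51. MT-CO2 had 849.5, 794 and 240.1 CPM in the IPs and 3184, 2628 and 2285 CPM in the inputs and MT-CYB had 949, 711 and 262 CPM in the IPs and 2607, 2030.0 and 1901 CPM in the inputs. Control IP 3 was far below the other IPs for both, and control input 1 was the highest input. The differences were -2.10 ± 0.35 and -1.77 ± 0.34, and that of MT-CO2 was -1.37 with the length correction.

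Glycolytic enzymes were mixed, with 7 of 18 lower, 4 higher (HK2, GPI, PGK1 and LDHB) and a median of -0.05 that turned to between 0.01 and 0.03 with the length correction, with that correction and the replicate term, and without control IP 1. GAPDH had 367, 598 and 408 CPM in the IPs and 2525, 2929 and 2783 CPM in the inputs, ENO1 had 875, 1195 and 791 CPM in the IPs and 2485, 2824 and 2616 CPM in the inputs and TPI1 had 112, 151 and 92.6 CPM in the IPs and 386, 455 and 478 CPM in the inputs. The differences were -2.59 ± 0.19, -1.47 ± 0.17 and -1.89 ± 0.18 (-1.12 for TPI1 with the length correction). Enzymes of the tricarboxylic acid cycle had 9 of 21 lower and 1 higher (FH), with a median of -0.36 that was -0.56 without control IP 1.

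Antioxidant enzymes had 16 of 31 lower and 2 higher (GSR and GPX8), with a median of -0.76. GSTP1, a glutathione transferase, had 12.4, 23.6 and 14.1 CPM in the IPs and 82.3, 113 and 126 CPM in the inputs. GPX4, which reduces lipid peroxides, had 8.28, 15.9 and 9.34 CPM in the IPs and 48.5, 50.5 and 50.0 CPM in the inputs. CAT, catalase, had 21.5, 29.3 and 23.5 CPM in the IPs and 71.8, 72.0 and 67.6 CPM in the inputs. The differences were -2.68 ± 0.26, -2.15 ± 0.23 and -1.51 ± 0.17. Cholesterol synthesis enzymes had 8 of 23 lower and 1 higher, with a median of -0.78. CYP51A1, which demethylates lanosterol, had 32.9, 27.4 and 35.2 CPM in the IPs and 129, 107 and 89.9 CPM in the inputs, a difference of -1.77 ± 0.17. With the length correction 5 enzymes of cholesterol synthesis were lower.

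Proteasome subunits had 20 of 45 lower and 3 higher (PSMC2, PSME3 and PSMG4), with a median of -0.67 that was -0.42 without control IP 3; with the length correction 9 were lower and 10 higher. PSMA7, of the catalytic core, had 28.1, 22.4 and 15.7 CPM in the IPs and 115, 109 and 106 CPM in the inputs, a difference of -2.32 ± 0.22. Cytosolic chaperones had 10 of 35 lower and 6 higher, and their median of -0.07 turned to between 0.04 and 0.12 with the length correction, with and without the replicate term, and without control IP 3, with and without control input 1. HSPB1, a small heat shock protein, had 5.49, 9.60 and 8.40 CPM in the IPs and 41.4, 72.5 and 78.6 CPM in the inputs, and CCT4, of the chaperonin ring, had 435, 375 and 258 CPM in the IPs and 144, 138 and 123 CPM in the inputs. The differences were -3.04 ± 0.33 and 1.40 ± 0.18.

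Messages of the secretory pathway were lower in several of its steps. The translocon, signal peptidase and oligosaccharyltransferase group had 16 of 37 lower and 3 higher, with a median of -0.61. SSR4, of the translocon-associated complex, had 8.07, 16.5 and 11.7 CPM in the IPs and 110.2, 144 and 119 CPM in the inputs. TRAM1, a translocon component, had 5.49, 4.02 and 10.2 CPM in the IPs and 64.6, 45.6 and 41.9 CPM in the inputs. SRP14, a subunit of the signal recognition particle, which is cytosolic, had 669, 770.4 and 395 CPM in the IPs and 133, 130.2 and 127 CPM in the inputs. The differences were -3.36 ± 0.25, -2.95 ± 0.30 and 2.23 ± 0.21, that of OST4, of oligosaccharyltransferase, was -2.56 ± 0.23, and the other 2 higher members were TRAM2 and SEC11A. Folding enzymes of the endoplasmic reticulum had 9 of 34 lower and 2 higher (EDEM1 and DNAJB9, both induced by the unfolded protein response), with a median of -0.49 that was -0.25 without control IP 3. Coat proteins and cargo receptors of COPI and COPII vesicles had 17 of 43 lower and 5 higher, with a median of -0.40. TMED2, a cargo receptor, had 38.1, 56.9 and 38.5 CPM in the IPs and 222, 235 and 196 CPM in the inputs. COPE, the epsilon subunit of the COPI coat, had 0.169, 1.82 and 1.98 CPM in the IPs and 14.4, 20.3 and 20.8 CPM in the inputs. GOSR2, a Golgi SNARE, had 59.0, 76.4 and 68.7 CPM in the IPs and 27.0, 17.5 and 17 CPM in the inputs. The differences were -2.29 ± 0.18, -3.82 ± 0.56 and 1.73 ± 0.21, and that of SURF4, a cargo receptor, was -1.58 ± 0.18 (-0.94 with the length correction). The other higher members were the coat subunits SEC23B, COPB1, COPA and COPG2, so coat subunits lay on both sides.

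Lysosomal proteins and the V-ATPase had 17 of 45 lower and 7 higher, with a median of -0.19 that was -0.42 without control IP 1, -0.30 without control input 3 and -0.56 with total counts. CTSD, a lysosomal protease, had 7.56, 11.3 and 21.8 CPM in the IPs and 91.9, 124 and 94.7 CPM in the inputs. ATP6V1G1, a subunit of the V-ATPase, had 537, 549 and 265 CPM in the IPs and 107, 100.2 and 95.8 CPM in the inputs. The differences were -2.94 ± 0.31 and 2.16 ± 0.23, and 3 more V-ATPase or accessory subunits, ATP6AP2, ATP6V1B2 and ATP6V1C1, were among the 7 higher members. Matrix glycoproteins and matrix-modifying enzymes had 14 of 46 lower and 5 higher, with a median of -0.44. TIMP1, an inhibitor of matrix proteases, differed by -2.04 ± 0.26 (-1.27 with the length correction). VCAN, a large proteoglycan, had 349.5, 242 and 189.7 CPM in the IPs and 78.2, 67.6 and 55.3 CPM in the inputs, a difference of 1.96 ± 0.22 that was 1.30 on log2(TPM + 1). LAMB1, LAMC1, SPARC and MMP14 were higher as well. Collagens, 4 higher and 4 lower of 27, and integrin subunits, 3 and 3 of 19, had called shares near the background in both directions. Their medians, -0.35 and -0.39, were below that of all genes. With the length correction 0 collagens were higher and 7 lower, with a median of -0.60. For integrin subunits that setting gave 0 higher and 1 lower, with a median of -0.24. COL6A2 differed by -1.90 ± 0.34. Solute carriers had 22 of 187 higher and 28 lower, and 14 higher without control IP 1 or without control input 2 and 10 without control input 3. Mitochondrial carriers had 4 of 38 higher and 6 lower. Tetraspanins and TMEM proteins had 27 of 191 (14.1%) higher and 39 (20.4%) lower, with a median of -0.10 that turned to 0.06 without control IP 3 and control input 1. Of these, 24 were lower without control input 2 and 14 higher without control input 3.

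Actin, actin-binding proteins and tubulins had 28 of 48 (58.3%) lower and 6 higher, with a median of -1.01; with the length correction 18 were lower and the median was -0.62. TUBA1B, an alpha-tubulin, had 214, 277 and 210.4 CPM in the IPs and 1006, 1199 and 1087 CPM in the inputs. TAGLN2, an actin-binding protein, had 50.3, 69.5 and 40.1 CPM in the IPs and 283, 282 and 289 CPM in the inputs. TMSB10, which holds actin monomers, had 113, 142 and 56.2 CPM in the IPs and 440.5, 514 and 527 CPM in the inputs. The differences were -2.23 ± 0.23, -2.42 ± 0.19 and -2.25 ± 0.27 (-1.46 for TMSB10 with the length correction). The 6 higher members were MYH9, MYH10, CFL2, TPM4, TUBB6 and NES, of which the myosin heavy chains and nestin are long proteins. Nestin was listed here although it is an intermediate filament protein, and it is also among the astrocytic markers above. Reads of tubulin and actin genes can be shared among close copies.

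Mitosis and kinetochore genes had 9 of 47 (19.1%) lower and 3 higher, and replication genes had 9 of 46 (19.6%) lower and 6 higher. CDK1, the mitotic kinase, had 22.0, 18.3 and 18.9 CPM in the IPs and 53.6, 51.0 and 47.3 CPM in the inputs, a difference of -1.36 ± 0.19 that was -0.59 with the length correction. MKI67, a proliferation marker with a long mRNA, had 480.1, 464 and 815 CPM in the IPs and 329, 303 and 261 CPM in the inputs, a difference of 0.98 ± 0.21 with control IP 3 the highest IP. With the length correction it was 0.11 and did not pass (edgeR, adjusted p = 0.658), nor did it pass on log2(TPM + 1) or in fits of the 6 control libraries alone. Regulators of apoptosis and genes induced by DNA damage had 11 of 32 higher and 3 lower, with a median of 0.47 that turned to -0.04 on TPM. MDM2, a ubiquitin ligase, had 183, 145 and 151 CPM in the IPs and 60.3, 64.0 and 66.3 CPM in the inputs, and MCL1, an unstable survival protein, had 936, 811 and 541 CPM in the IPs and 293, 272 and 295 CPM in the inputs. The differences were 1.33 ± 0.15 and 1.41 ± 0.18, and MDM2 was at -0.16 on log2(TPM + 1). BAX and BID, which promote apoptosis, were lower.

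Outside these classes, the largest differences toward the IP at 5 CPM or more on average included C1orf216, with 350.1, 321 and 199 CPM in the IPs and 22.9, 29.2 and 29.2 CPM in the inputs, a difference of 3.42 ± 0.23. Toward the input they included BTBD2, with 0, 0 and 0.522 CPM in the IPs and 16, 25.5 and 24.1 CPM in the inputs, UBL5, a ubiquitin-like protein, with 0.465, 2.51 and 0.574 CPM in the IPs and 23.4, 25.1 and 28.1 CPM in the inputs, and PPDPF, with 0.211, 0.865 and 1.57 CPM in the IPs and 13.8, 25.3 and 25.6 CPM in the inputs. BTBD2 was listed at 0 in control IP 1 and 2. The differences of UBL5 and PPDPF were -4.42 ± 0.53 and -4.64 ± 0.55, and that of BTBD2 was -7.07 ± 1.01, or -12.0 without control IP 3, the only IP in which it has counts. TRIR was listed at 0 in all 3 IPs and at 26.0, 20.7 and 8.75 CPM in the inputs, which is at least 391-fold lower in the IP when 3 counts over all 3 IPs are taken as the floor. The readthrough gene BLOC1S5-TXNDC5 was also at 0 in all 3 IPs and was at 41.1, 25.8 and 8.03 CPM in the inputs, at least 516.5-fold lower on the same floor, which covers counting error only. It overlaps TXNDC5 and BLOC1S5, and how reads were shared among the 3 was not tested. Of the markers, FABP7, a fatty acid-binding protein of glia, and CLU, a secreted chaperone of astrocytes, differed by -1.52 ± 0.35 and -1.57 ± 0.20, and GLUL, glutamine synthetase, by 1.00 ± 0.18, which was 0.66 with total counts and -0.09 on log2(TPM + 1).

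The IP over input difference went with transcript length over the whole range. Length was taken from the ratio of counts to TPM, as its median over the libraries with enough counts. Genes were ranked into 10 equal groups from short to long. IPs are among these libraries, so this length is not independent of the recovery set against it. The share of genes higher in the IP was 3.92% in the shortest group and 42.1% in the longest, and the share lower was 26.0% and 1.35%. The shares changed in order through nearly all groups, and the group medians increased from one group to the next without exception. Classes above differ in length, and their part in the length trend, or its part in them, was not tested beyond the length correction, under which the medians of ribosomal proteins, respiratory chain, actin and tubulin stayed below -0.6 and that of zinc finger factors was 0.63. Not all medians moved toward 0. Among others, those of collagens, matrix glycoproteins, the m6A machinery and aminoacyl-tRNA synthetases moved away from it, to -0.602, -0.54, 0.325 and 0.312. HOX mRNAs were at 1.07, mitochondrially encoded mRNAs at -1.14 and elongation factors at -0.71. Several other medians moved toward 0 and ended nearer to it than those of ribosomal proteins, respiratory chain, actin and tubulin and zinc finger factors. Antioxidant enzymes were at -0.38, Sm, LSm and U snRNP proteins at -0.28 and proteasome subunits at -0.29. Chromatin regulators were at 0.32 with 29 higher, decay factors at 0.19 with 13 higher and apoptosis and DNA damage genes at 0.16 with 5 higher. Over 10 groups by mean CPM the median lay between -0.28 and 0.32, and in the lowest of them 0.54% were higher and 1.22% lower.

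**Figure D4:**
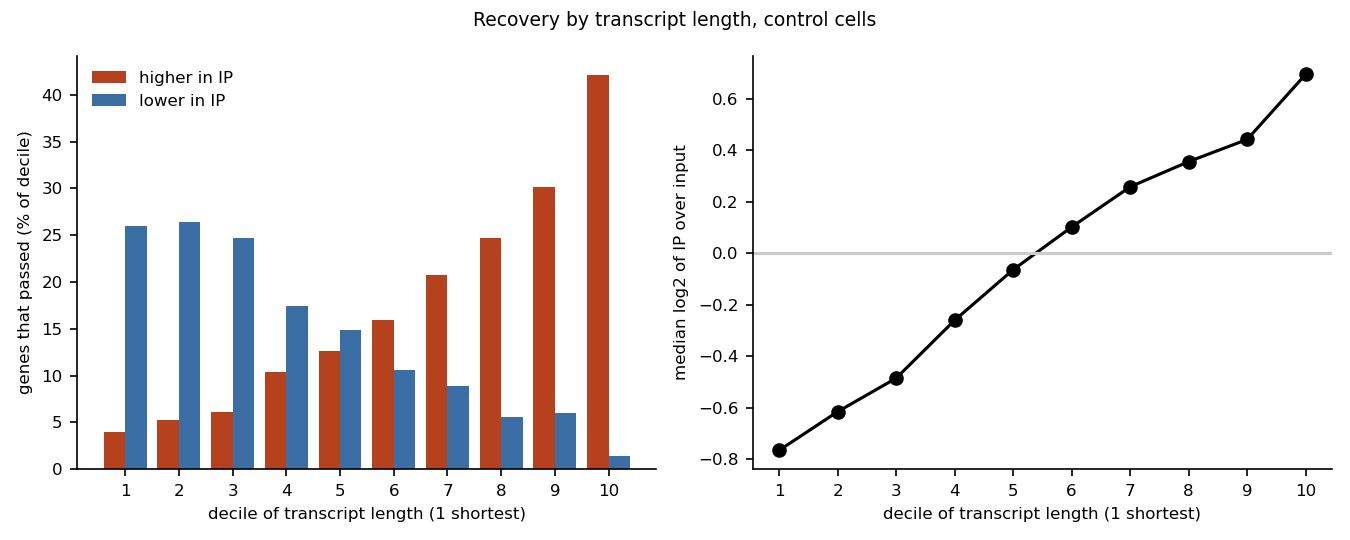
Left, share of genes in each of 10 groups by transcript length that were higher or lower in the control IP (edgeR, adjusted p below 0.05); right, median log2 difference, IP over input, in each group. The higher share is 42.1% and the median 0.69 in the longest group, and the lower share is greatest in the 3 shortest.

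Noncoding and poorly annotated genes were called higher in shares below the 17.2% of all genes. Of 371 genes with LINC or antisense names, 34 (9.16%) were higher and 6 lower, with a median of 0.28. Of 816 with clone-type names, 61 were higher and 25 lower, with a median of 0.48. The shares lower in these 2 sets, 1.62% and 3.06%, were also below the 14.2% of all genes. Both medians were above the 0.04 of all genes. Whether the small shares in both directions go with low level was not tested, and they do not show poorer recovery. Readthrough genes, 28 in number, had 2 higher and 6 lower. Whether counting used strand is not given in the sources used here, so antisense genes cannot be told apart from their partners.

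Control IP 3, the library with low alignment, had most of these classes on the same side of the input as the other IPs, with more extreme values at the depleted end. Set against the mean of the inputs, the median of ribosomal proteins was -1.89, -1.65 and -2.97 in control IP 1 to 3, that of respiratory chain subunits -1.03, -0.91 and -2.02, and that of mitochondrially encoded mRNAs -0.94, -1.43 and -2.85. Proteasome subunits were at -0.29, -0.41 and -1.31. Chromatin regulators were further up in control IP 3, at 0.26, 0.22 and 0.90. Messages of hnRNP and SR proteins were above the input in control IP 1 and 2 and below it in control IP 3, at 0.45, 0.28 and -0.36, and cytosolic chaperones likewise, at 0.13, 0.05 and -0.63. Zinc finger factors were at 0.76, 0.76 and 0.98. Without control IP 3, 3025 genes were higher and 2796 lower, so more passed with 1 library fewer, and the median of ribosomal proteins was -1.79 with 72 of 81 lower. Leaving it out raised several counts by more than 1.5 times: 18 zinc finger factors, 10 mitochondrial carriers, 8 collagens, 8 MAP kinase cascade kinases and 8 decay factors were lower, and 14 replication genes, 12 chaperones, 12 initiation factors, 11 mitochondrial ribosomal proteins, 9 translocon members, 9 vesicle coat members and 8 proteasome subunits were higher. Whether the low alignment and these values have a common source was not tested.

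**Figure D5:**
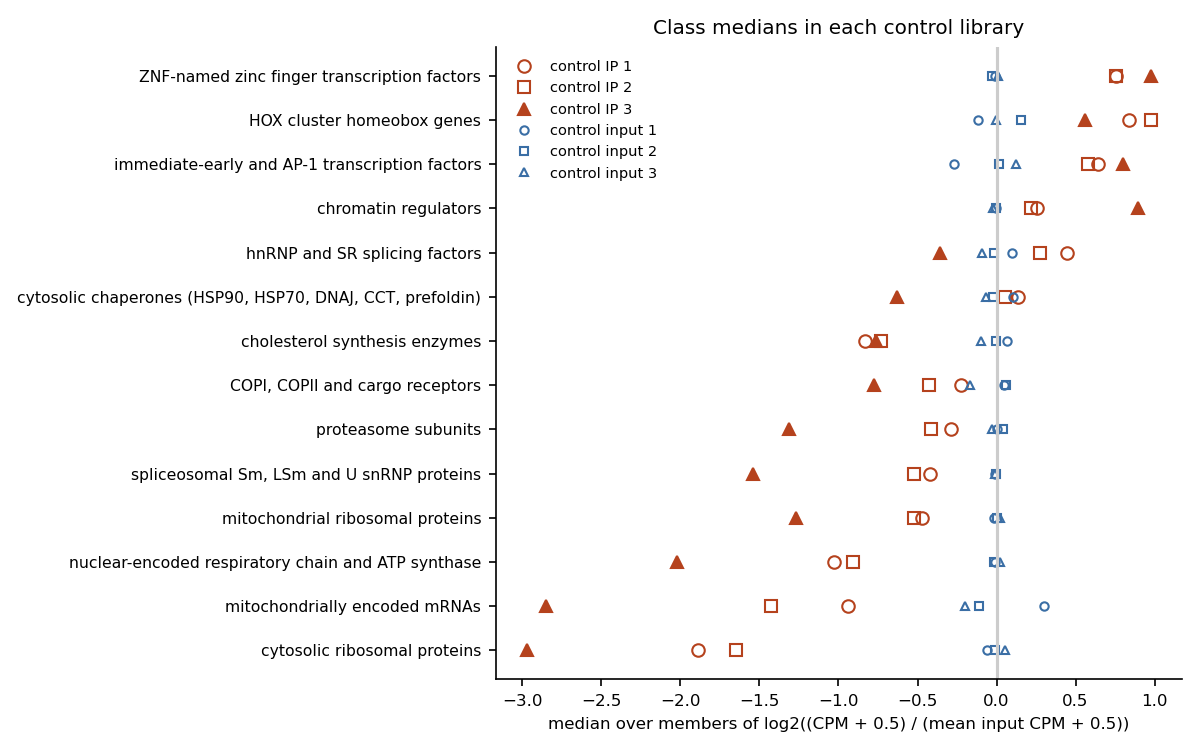
Median over class members of the log2 ratio of each library to the mean of the 3 inputs, with 0.5 CPM added to both, for 14 classes; red marks are IPs, filled triangles control IP 3, and blue marks inputs. Control IP 3 lies apart from control IP 1 and 2 for the depleted classes other than cholesterol synthesis, for chromatin regulators, and on the other side of 0 for hnRNP and SR factors and chaperones.

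The length of transcript to which a gene's reads were assigned differed between libraries. It can be read from the ratio of counts to TPM, set against mitochondrial genes with 1 transcript each, and 9149 genes had enough counts in every library. The assigned transcript was longer than the input mean by at least 0.5 on the log2 scale for 1342, 1205 and 677 genes in control IP 1 to 3, which are 14.7%, 13.2% and 7.4%. Each input set against the other 2 gave 462, 383 and 355 genes. The assigned transcript was shorter by as much for 664, 575 and 549 genes in control IP 1 to 3 and for 740, 269 and 259 genes in control input 1 to 3, so control input 1 had more such genes than any control IP. A total of 1004 genes were longer in both control IP 1 and 2, and 374 of these also in control IP 3. MDM2 had assigned lengths, relative to mitochondrial genes on the log2 scale, of 3.06, 2.82 and 1.13 in the 3 IPs, numbered as above, against 1.21, 1.02 and 1.11 in the inputs. CCND1 had 2.63, 2.63 and 1.57 in the IPs and 1.65, 1.30 and 1.18 in the inputs. ARID1A had 3.65, 3.62 and 2.51 in the IPs and 2.15, 2.55 and 2.38 in the inputs. For MDM2, CCND1 and ARID1A control IP 3 lay nearer the inputs than the other IPs did, and counts and TPM disagree: MDM2 had a count difference of 1.33 ± 0.15 and one of -0.16 on log2(TPM + 1). JUN was at 2.23 in all 6 libraries, MAT2A between 1.93 and 1.98 and CTGF between 1.68 and 1.69. Of the 1004 genes, 333 (33.2%) were higher in the IP and 83 (8.27%) lower, beside 26.2% and 17.8% of all genes compared. Isoforms were not analysed here.

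The change between treatments, tested as the IP over input difference in manganese-treated cells minus that in control cells, passed upward for 6.94% of all genes and downward for 10.2%. Of the genes that passed, 40.6% changed upward, and with total counts 55.6% and on log2(TPM + 1) 59.7% did. Ribosomal proteins had a median difference of -0.76 in manganese-treated cells and -2.06 in control cells, and 33 of 81 passed upward and none downward (62 and 0 at an unadjusted p below 0.05; DESeq2 called 60 and 0). Respiratory chain subunits had -0.58 with manganese and -1.34 in control cells, with 15 of 78 upward and 1 downward. Zinc finger factors had 0.21 with manganese and 0.92 in control cells, with 100 of 416 downward and 9 upward; with total counts 66 passed downward and on log2(TPM + 1) 49. Mitochondrially encoded mRNAs had -1.29 with manganese and -1.51 in control cells, and none of the 13 passed in either direction, at an unadjusted p below 0.05 or by DESeq2. Immediate-early and AP-1 mRNAs had 0.38 with manganese and 0.73 in control cells, with 2 of 29 upward and 2 downward, which is near the background. Of 27 HOX mRNAs, 0 passed upward and 1 downward (0 and 3 at an unadjusted p below 0.05; DESeq2 called 0 and 2), with a median of 0.52 with manganese and 1.10 in control cells.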

How the data were processed

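Immunoprecipitated and input RNA was sequenced from U251-MG cells, and the 3 control IP and 3 control input libraries were compared. The authors deposited estimated counts per gene as whole numbers, made with kallisto against hg19 per the submitters' processing notes, which give no version, and TPM, which the authors deposited in the same way. The authors also deposited alignment percentages and a table that pairs gene IDs with names; of 36963 genes it named 35185, another 27 names turned into dates were recovered from the annotation table, and 1751 had none. Strand use in counting is not given in the sources used here.

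The counts of all 12 libraries entered 1 edgeR quasi-likelihood fit (edgeR 4.0.16, R 4.3.3) after filterByExpr (minimum count 10, minimum total 15), with TMM factors and Benjamini-Hochberg adjustment over 14804 genes at 0.05. Total counts lay between 16683984 and 25872265 in the control libraries. The contrasts were control IP against control input, and that difference with manganese against control. Alternatives used DESeq2 1.42.0, limma 3.58.1 (voom, and a trend on log2(TPM + 1)), other factors and filters, a length correction, a replicate term, fewer libraries and named genes alone, 21 settings for the control comparison. The 6 control libraries with a replicate term were added after the data were seen. The script was tested on simulated data.

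Members and the 47 gene lists were chosen with earlier results of these data known, and a few lists were corrected after values were seen. Genes given values are part of those with the 15 largest changes per direction at 5 CPM or more with no overlap between groups, the 4 smallest p per list, MAP2K4, JUN and the YTHDF genes, and members named without values were in part chosen after their values were seen. A few members are not reported here. Start sequences are from RefSeq (GRCh38.p14), matched by symbol for 10895 tested genes, and no coordinates of the counts were used. Counts, CPM and floors carry counting error only.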

Additional observations from a re-analysis of the deposited data

Results flagged for a closer look

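For 54 of the 103 genes followed, the IP over input difference in manganese-treated cells minus that in control cells passed the interaction test (edgeR, adjusted p below 0.05), 32 upward and 22 downward. Over all 14804 genes, 6.94% passed upward and 10.2% downward, and the genes followed were chosen for their control values, which enter this difference. Values are differences on the log2 scale.

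The 18 of these genes that were higher in the control IP all changed downward. Among transcription factors the change was -2.44 for ZNF799, -2.07 for ZNF700, -1.15 for ZNF134, -0.88 for FOXO1 and -0.62 for BHLHE40. Among signalling genes and ubiquitin ligases it was -1.48 for MAP2K4, -1.29 for ERRFI1, -1.31 for BMP2, -1.08 for TRIM45 and -0.89 for TRIM32. Among genes of RNA metabolism and methyl donor synthesis it was -1.24 for RBM15, -0.95 for WTAP, -0.80 for MAT2A and -0.78 for YTHDF2. Others changed by -1.19 for C1orf216, -1.19 for VCAN, -1.04 for MDM2 and -0.83 for CCT4. ZNF700 stood at 0.28 in manganese-treated cells and 2.35 in control cells, and MAP2K4 at 0.29 in manganese-treated cells and 1.77 in control cells.

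Of the 36 that were lower in the control IP, 4 changed further downward, by -1.61 for CDK1, -1.34 for TRAM1, -0.86 for CYP51A1 and -0.73 for CAT. The other 32 changed upward. For translation the change was 3.37 for RPL36, 3.31 for RPS16, 2.20 for RPLP1, 1.81 for RPL19, 1.25 for RPLP0, 3.10 for EIF5A, 2.80 for EEF1D and 2.93 for MRPL54. For energy metabolism and antioxidant enzymes it was 3.07 for NDUFA13, 1.98 for ATP5ME, 1.63 for COX8A, 1.27 for GAPDH, 1.28 for ENO1, 1.00 for TPI1, 2.19 for GSTP1 and 1.44 for GPX4. For protein folding, turnover, splicing and secretion it was 3.41 for HSPB1, 1.12 for PSMA7, 2.22 for SF3B5, 2.36 for SSR4, 3.57 for COPE and 2.25 for CTSD. For matrix, cytoskeleton and a glial marker it was 2.92 for COL6A2, 2.36 for TIMP1, 1.82 for TMSB10, 1.08 for TAGLN2 and 1.61 for CLU. It was also 6.21 for BTBD2, 3.74 for PPDPF and 3.00 for UBL5. The fitted 11.8 for TRIR and 9.48 for BLOC1S5-TXNDC5 rest on IPs listed at 0 and depend on the prior count. HSPB1 stood at 0.38 in manganese-treated cells and -3.04 in control cells, and EIF5A at 0.33 in manganese-treated cells and -2.77 in control cells.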

How the results depend on the processing

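The count of genes higher in the control IP, 2543 as reported, was 1560 on log2(TPM + 1), 1636 in a fit of only the 6 control libraries, 1366 there with the replicate term and 1679 with total counts. The count of lower genes, 2096, was 3419 on log2(TPM + 1) and 3036 with total counts. It was 1834 in the fit of only the 6 control libraries and 1691 there with the replicate term. In each of these settings more genes were lower than higher. Leaving out each control library in turn gave 1910 to 3025 higher and 1572 to 2796 lower, the highest of both without control IP 3. For the change with manganese, 1028 genes higher and 1503 lower as reported, DESeq2 gave 1574 higher, and the fit without control IP 3 and control input 1 gave 1624 higher and 2374 lower. The length correction with the replicate term gave 849 lower, log2(TPM + 1) gave 670 lower, and leaving out each library gave 675 to 1496 higher and 771 to 2269 lower. The cause was not tested. On log2(TPM + 1), MDM2 was at -0.16 and GLUL at -0.0906, against positive values as reported, and neither passed.

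Input was set aside from the lysate used for the IP, so same-numbered control libraries may be pairs, although the labels do not state it. No shared deviation was seen between them (r of deviations 0.0657, -0.000652 and 0.0243). With so few libraries this cannot show that they are unpaired. The reported fit leaves replicate number out, and pairing is left undecided. With replicate number as a block, 2277 genes were higher and 2057 lower.

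Of the 103 genes followed, 102 passed as reported, and of 2163 values recomputed under alternatives 2152 kept direction and side of the threshold. These genes were chosen mainly for large differences or small p in the same comparison, and the settings reuse the same libraries. High shares were therefore likely in advance and are no independent support. Depth is lowest in control IP 3, and in the lowest of 10 groups by level 0.54% of genes were higher and 1.22% lower.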
